A study of Homo sapiens with 18 samples.

Results

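The E2F family of transcription factors and the pocket proteins that bind them were followed through oxidative stress in IMR90 cells, a line of human primary lung fibroblasts. The genes were taken by symbol from the deposited table: 7 E2F factors (E2F1, E2F2, E2F3, E2F4, E2F5, E2F7 and E2F8) and 3 pocket proteins (RB1, RBL1 and RBL2), 10 of 56269 genes, all of them present in the table. Poly(A) RNA was sequenced from 18 libraries in 6 groups of 3 biological replicates. A pre-incubation of 6 h with PBS, cNSF-HA or fNSF-HA was followed either by direct collection or by the oxidant tert-butyl hydroperoxide (tBHP, 200 μM for 1 h, followed by 5 h without it). HA is hyaluronan, here purified from naked mole-rat skin fibroblasts and used at 20 μg/ml. In cNSF-HA the very long polymers were kept, since the hyaluronidase added to it had been heat-inactivated, and in fNSF-HA they had been cut in part by the active enzyme. HA or PBS was removed before tBHP, so every tBHP group was collected 12 h after the start of the pre-incubation and every group without tBHP after 6 h. The oxidant and the further 6 h in culture therefore cannot be told apart in any comparison of the 2 states, and all cells came from 1 fibroblast strain. Libraries held 20261103 to 26287660 reads on genes. The 10 fibroblast markers were all expressed in every group, with a summed normalized count of 1018600 to 1363240. The summed count of 4 endothelial markers was 6.52 to 14.8 without tBHP and 13.1 to 25.1 with it, that of 4 immune markers was 1.97 to 5.86 and 2.19 to 12.5, and that of 5 epithelial markers was 174 to 198 and 81.9 to 184. Of these 13 markers, KRT19 and VWF had a mean of at least 10, and 3 were at 0 in all libraries. The part of other cell types in the values was not tested, and in bulk RNA a change in the share of cells that express a gene and a change per cell cannot be told apart.

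Pocket proteins hold E2F factors in check. RB1 mainly binds the activator factors E2F1, E2F2 and E2F3, while RBL1 (p107) and RBL2 (p130) mainly bind the repressor factors E2F4 and E2F5 and, with the MuvB core, form the DREAM complex that keeps cell cycle genes silent in resting cells. Cyclin-dependent kinases phosphorylate the pocket proteins and release the factors, and CDK inhibitors such as CDKN1A (p21) keep this from happening. E2F7 and E2F8 are atypical: they bind DNA without a DP partner, are not bound by pocket proteins, and repress genes that the activators switch on. E2F7 is a known target gene of p53, and E2F1 and RBL1 are among the known targets of E2F factors themselves.

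By GENCODE 29 on GRCh38, the activator genes lie on chromosomes 20 (E2F1, 33675683 to 33686404), 1 (E2F2, 23506430 to 23531220) and 6 (E2F3, 20401906 to 20493715). The repressor genes E2F4 and E2F5 lie on chromosomes 16 (67192169 to 67198918) and 8 (85177225 to 85217158), and the atypical genes E2F7 and E2F8 on chromosomes 12 (77021247 to 77065580) and 11 (19224063 to 19241620). Of the pocket protein genes, RB1 lies on chromosome 13 (48303726 to 48599436), RBL1 on chromosome 20 (36996349 to 37095995) and RBL2 on chromosome 16 (53433977 to 53491649). Their merged exons measure from 2503 bases (E2F1) to 7320 bases (RBL2).

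The stretches around the transcription start are shown for E2F1, E2F3 and RBL1, which hold E2F motif letters, and for E2F7, the gene of the family that rose after tBHP and has none of these letters. Each run is from RefSeq (GRCh38.p14), on the strand of the gene, 5′ to 3′, from 70 bases before the start to 50 bases after it. They lie at chr20:33686336-33686455 (E2F1, minus strand), chr6:20401809-20401928 (E2F3, plus strand), chr20:37095948-37096067 (RBL1, minus strand) and chr12:77065520-77065639 (E2F7, minus strand). Capitals mark matches on either strand to TTTCCCGC, TTTCGCGC, TTTGCCGC or TTTGGCGC, which are common forms of the E2F motif.
E2F1: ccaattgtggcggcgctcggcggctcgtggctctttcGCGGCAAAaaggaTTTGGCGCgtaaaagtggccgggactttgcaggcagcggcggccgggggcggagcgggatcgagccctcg
E2F3: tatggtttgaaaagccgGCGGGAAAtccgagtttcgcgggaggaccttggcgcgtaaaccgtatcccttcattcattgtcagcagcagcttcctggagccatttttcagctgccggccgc
RBL1: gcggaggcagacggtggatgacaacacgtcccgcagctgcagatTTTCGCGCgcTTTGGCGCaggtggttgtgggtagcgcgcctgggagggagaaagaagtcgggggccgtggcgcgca
E2F7: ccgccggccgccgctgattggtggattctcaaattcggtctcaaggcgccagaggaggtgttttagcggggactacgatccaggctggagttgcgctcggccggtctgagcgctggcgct
Over the full RefSeq entries, which run from 250 bases before the start to 50 after it, 1164 of 35116 promoters (3.31%) held such a match. Of the 10 genes, 8 had an entry and 4 of these held a match. A gene was counted if any of its entries held a match, while the share over all promoters counts single entries. E2F1 held a pair of matches, at -33 to -26 and at -20 to -13 from the start, and RBL1 held another pair, at -26 to -19 and at -16 to -9. E2F2 and E2F3 held 1 match each, at -42 to -35 and at -53 to -46. No match was found in the entries of E2F4, E2F7 and RBL2. The RBL2 entries have their starts 494 and 1642 bases inside the gene by GENCODE, so its upstream end was not searched. The entry of RB1 also held none, but it starts 172724 bases inside the gene, so the promoter at its upstream end was not analysed here. E2F5 and E2F8 had no entry, so their promoters were not searched. No match says only that these letters are not in this window.

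Before tBHP, the activator E2F1 and the repressor E2F4 stood highest once read counts were divided by the length of the merged exons. Across the 9 libraries without tBHP, the normalized count per kilobase ranged from 520.0 to 565 for E2F1 and from 475 to 525 for E2F4, and these ranges overlapped. The order then ran E2F7 (333 to 372), RB1 (256 to 300), E2F3 (222 to 254), RBL1 (165 to 196), RBL2 (126 to 142), E2F8 (70.6 to 86.2), E2F5 (10.99 to 15.0) and E2F2 (0.512 to 3.43), with no overlap between any of these neighbours. The pocket proteins together summed to 557 to 624 per kilobase, of which RB1 made up 45.7% to 48.3%. These orders, sums and shares hold for merged exon length. The longest transcripts measure 5684 bases for RBL1, 4906 for RBL2 and 4793 for RB1, against merged exons of 5954, 7320 and 6452. With transcript length the order of neighbours can change and their ranges can overlap, which was not computed here. After tBHP, E2F7 had the highest mean per kilobase of merged exons in each of the 3 groups, and its range over the 9 libraries was 473 to 986. It overlapped there with E2F4 (367 to 576), which in turn overlapped with E2F1 (314 to 556). The rank of E2F7 rests on the length used. Its merged exons measure 6303 bases and its longest transcript 5740, against 3582 and 2615 for E2F4. The order of these genes by longest transcript was not computed here and can differ. The ratio of E2F7 to E2F1 per kilobase was 0.589 to 0.682 without tBHP and 0.875 to 3.14 with it. The ratio of E2F7 to E2F8, the other atypical factor, was 3.94 to 5.16 without tBHP and 11.3 to 17.0 with it. The pocket proteins summed to 304 to 556 per kilobase after tBHP, which lies below all 9 libraries without it, by a narrow margin at 556 against 557.

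**Figure D1:**
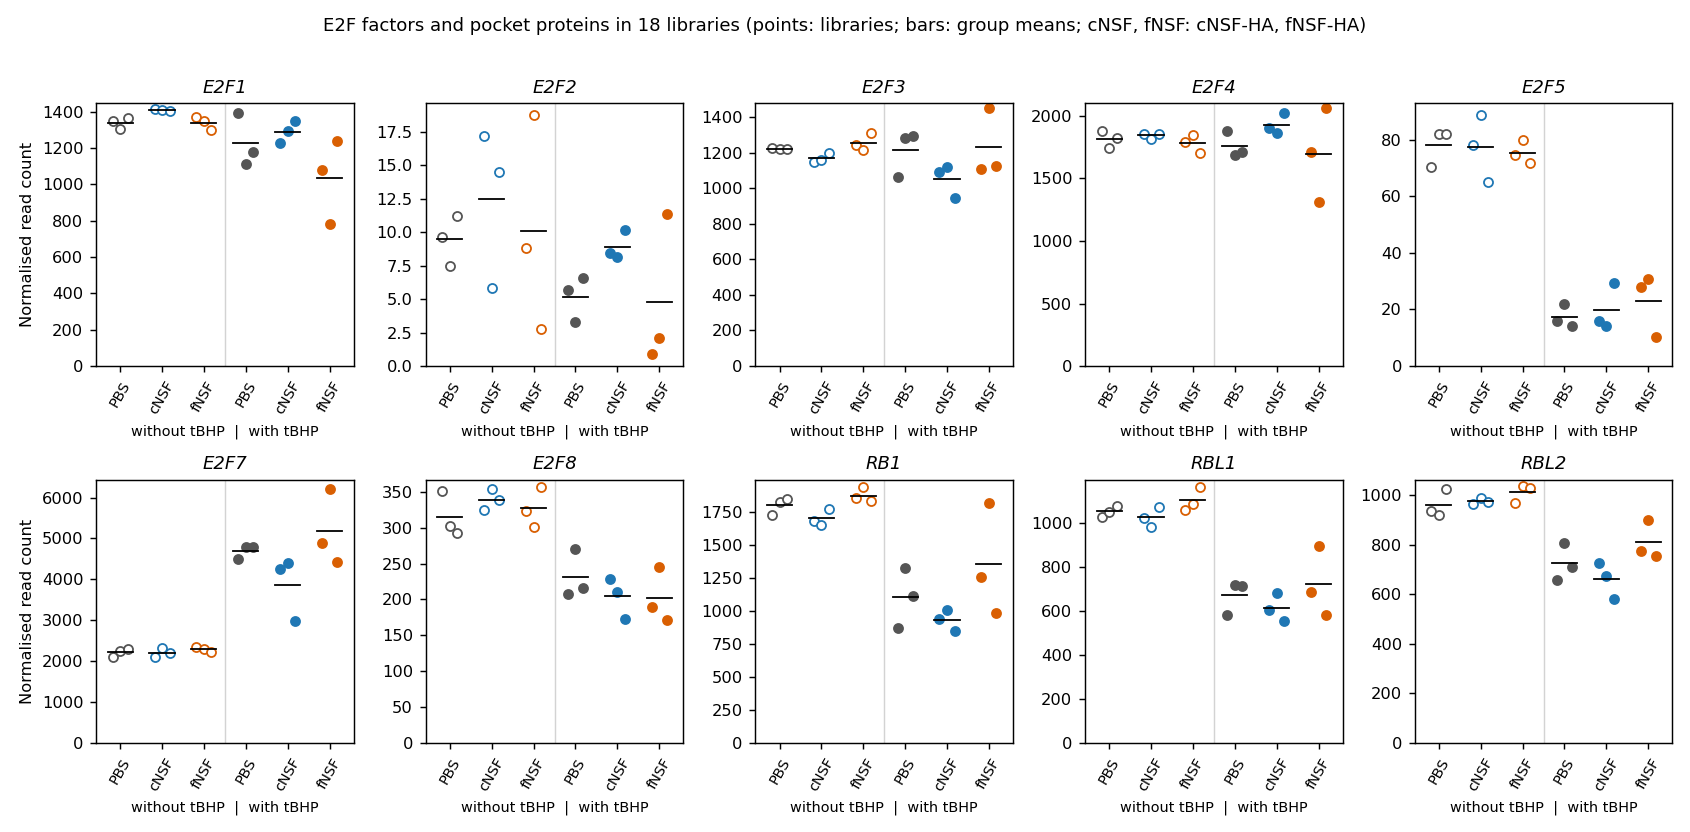
Normalized read counts (y axes, each from 0) of the 10 genes in the 6 groups (x axes), with open points for libraries without tBHP, filled points for libraries with tBHP and bars for group means of 3 libraries. E2F7 lay at 2100 to 2346 without tBHP and at 2979 to 6217 with it, E2F5 at 65.1 to 88.9 and 10.3 to 30.8, and RB1 at 1652 to 1932 and 850 to 1818.

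Replicates varied more with tBHP than without it for each of the 9 members. Within groups, the SD of the log2 values was 0.030 to 0.15 without tBHP and 0.15 to 0.60 with it, beside medians of 0.076 and 0.21 over all genes. Relative to the mean of the 9 tBHP libraries, fNSF-HA + tBHP replicate 2 was 0.73 higher for RB1, 0.68 higher for E2F5, 0.46 higher for E2F7 and 0.44 higher for RBL1, and its deviations were -0.57 for E2F1 and -0.44 for E2F4. In the same library the median deviation was -0.72 over transcripts with at least 60% GC and 0.45 over those under 40%. In cNSF-HA + tBHP replicate 3 the deviations were -0.60 for E2F7, -0.37 for RB1 and 0.62 for E2F5, beside medians of 0.29 and -0.15 for the same classes. When fNSF-HA + tBHP replicate 2 was left out, the log2 responses to tBHP in fNSF-HA cells of 1.16 for E2F7, -0.51 for RB1, -0.63 for RBL1 and -0.33 for RBL2 became 1.02, -0.75, -0.80 and -0.41. Those of E2F5 (-1.80) and E2F8 (-0.71) became -2.08 and -0.85, and those of E2F1 (-0.40), E2F3 (-0.04) and E2F4 (-0.09) became -0.21, -0.17 and 0.08. The part of these library differences in the members' values was not tested.

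Differences were tested with limma on log2(normalized count + 1), with Benjamini-Hochberg adjustment over the 13686 genes with a mean of at least 10, and values are given as log2 differences ± SE with n = 3 libraries per group. Of the 10 genes, 9 were tested. After tBHP, 6 of them passed an adjusted p of 0.05 in PBS cells, 1 rising and 5 falling, where the share over all genes was 51.1% (24.2% higher and 26.9% lower). For cNSF-HA cells the count was 6, again 1 rising and 5 falling, beside 50.8% of all genes (24% higher and 26.8% lower). For fNSF-HA cells it was 7, 1 rising and 6 falling, beside 41.9% of all genes (19.2% higher and 22.7% lower). edgeR and DESeq2 on the recovered reads gave the same counts of 6, 6 and 7. Of all genes, edgeR called 53.2%, 52.6% and 43.2%, and DESeq2 called 52.5%, 52.0% and 43.1%. Beside shares this high the counts say little about the family, and the size of each response is given by role. The groups did not overlap for 6, 9 and 7 members with PBS, cNSF-HA and fNSF-HA pre-incubation, beside 63.8%, 63.7% and 48.7% of all genes. The members' medians were -0.41, -0.57 and -0.40 in the same order, while the median over all genes lay between -0.03 and 0.00.

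E2F7 was the member that rose in all 3 pre-incubations. In PBS cells its normalized count was 2109.8, 2241 and 2298 without tBHP and 4506, 4781 and 4790.2 with it, a rise of 1.08 ± 0.12 on the log2 scale or 2.12-fold (adjusted p = 1.2e-06). In cNSF-HA cells it was 2100.2, 2316 and 2202 before and 4249, 4389 and 2979 after (0.79 ± 0.12, 1.73-fold, adjusted p = 4.2e-05). In fNSF-HA cells it was 2346, 2308 and 2235 before and 4895, 6217 and 4435 after (1.16 ± 0.12, 2.23-fold, adjusted p = 6.9e-07). The 9 libraries with tBHP all lay above the 9 without it. The lowest of the tBHP libraries was cNSF-HA replicate 3 and the highest was fNSF-HA replicate 2, and leaving out any 1 library kept the rise between 0.69 and 1.26. E2F8, which shares the atypical structure of E2F7, went the other way. Its normalized count in PBS cells was 351, 302 and 292 before and 208, 270.0 and 216 after tBHP, a difference of -0.45 ± 0.14 (adjusted p = 0.012). The fall of E2F8 was -0.74 ± 0.14 in cNSF-HA cells (adjusted p = 0.00028) and -0.71 ± 0.14 in fNSF-HA cells (adjusted p = 0.00052), with no overlap between the groups. In PBS cells the call for E2F8 was lost without PBS replicate 1 (-0.37, adjusted p = 0.061) or without PBS + tBHP replicate 1 (-0.38, adjusted p = 0.055).

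Of the repressor factors, E2F5 fell in all 3 pre-incubations and E2F4 was called in none. E2F5 had the largest log2 fall of the 9 members. Its normalized count in PBS cells was 70.5, 82.1 and 82.2 before and 15.9, 21.8 and 14.2 after tBHP (-2.13 ± 0.32, adjusted p = 2.9e-05). The difference was -1.97 ± 0.32 in cNSF-HA cells (adjusted p = 7.0e-05) and -1.80 ± 0.32 in fNSF-HA cells (adjusted p = 0.00021), and every library with tBHP lay below every library without it. E2F5 rested on 9 to 95 reads per library, and the pseudocount of 1 makes the change look smaller than it is at such counts. Its exons share 969 of 5928 bases with C8orf59, a gene on the opposite strand whose normalized count was 583 ± 38.9 (SD, n = 3) in PBS cells and 346 ± 51.3 after tBHP. The kit does not mark strand, so reads from the shared bases cannot be told apart. E2F4, the most abundant repressor, had a normalized count of 1881, 1742 and 1827 in PBS cells and of 1880.4, 1689 and 1708 after tBHP, and these overlapped (-0.05 ± 0.11, adjusted p = 0.74). E2F4 differed by 0.06 ± 0.11 in cNSF-HA cells and by -0.09 ± 0.11 in fNSF-HA cells (adjusted p = 0.64 and 0.52). Without fNSF-HA + tBHP replicate 3 the last of these became -0.25 (adjusted p = 0.036), and without replicate 2 of that group it became 0.08. The ratio of E2F4 to E2F5 per kilobase was 33.8 to 47.2 in the libraries without tBHP and 70.5 to 333 in those with it.

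Among the activators, E2F3 had a normalized count of 1228, 1219.6 and 1220.2 in PBS cells and of 1064, 1280.3 and 1294 after tBHP, which overlapped (-0.02 ± 0.10, adjusted p = 0.90). The 95% confidence interval, -0.23 to 0.19, bounds the change of E2F3 in PBS cells. E2F3 differed by -0.15 ± 0.10 in cNSF-HA cells (adjusted p = 0.20) and by -0.04 ± 0.10 in fNSF-HA cells (adjusted p = 0.77). E2F1 had a normalized count of 1349, 1306 and 1365 in PBS cells and of 1391, 1110.5 and 1176 after tBHP (-0.13 ± 0.12, adjusted p = 0.36). In cNSF-HA cells it was 1415, 1408 and 1404 before and 1226, 1295 and 1352 after, with no overlap but no call (-0.13 ± 0.12, adjusted p = 0.38). In fNSF-HA cells E2F1 fell from 1374, 1347 and 1302 to 1080.3, 785 and 1238 (-0.40 ± 0.12, adjusted p = 0.011). Without fNSF-HA + tBHP replicate 2, the library at 785, the fall was -0.21 (adjusted p = 0.041). A fit of the 2 fNSF-HA groups alone gave an adjusted p of 0.10. E2F2 was close to the limit of detection, with 1 to 19 reads per library and a mean normalized count of 8.49, under the minimum of 10. Its normalized count was 2.80 to 18.7 in the 9 libraries without tBHP and 0.877 to 11.4 in those with it, and the fit without a minimum called none of its responses (adjusted p = 0.46, 0.85 and 0.33 with PBS, cNSF-HA and fNSF-HA).

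All 3 pocket protein transcripts were lower after tBHP in each pre-incubation, and the groups did not overlap. RB1, the retinoblastoma protein, had a normalized count of 1727, 1823 and 1848 in PBS cells and of 872, 1319.5 and 1108 after tBHP (-0.73 ± 0.16, adjusted p = 0.0010). In cNSF-HA cells RB1 was 1677, 1652 and 1769 before and 937, 1003 and 849.8 after (-0.87 ± 0.16, adjusted p = 0.00023). In fNSF-HA cells RB1 was 1849, 1932 and 1827 before and 1252, 1818 and 986 after (-0.51 ± 0.16, adjusted p = 0.016). The second of these tBHP libraries, at 1818, lay just below the lowest fNSF-HA library without tBHP, at 1827. The call for RB1 in fNSF-HA cells was lost without fNSF-HA replicate 2 (-0.49, adjusted p = 0.0501), without fNSF-HA + tBHP replicate 1 (-0.48, adjusted p = 0.053) and without fNSF-HA + tBHP replicate 3 (-0.31, adjusted p = 0.089), and in a fit of the 2 fNSF-HA groups alone (adjusted p = 0.094). RBL1 had a normalized count of 1030.3, 1051 and 1078 in PBS cells and of 581, 719.6 and 712 after tBHP (-0.66 ± 0.12, adjusted p = 0.00026). RBL1 fell by 0.75 on the log2 scale in cNSF-HA cells (SE 0.12, adjusted p = 7.5e-05) and by 0.63 in fNSF-HA cells (SE 0.12, adjusted p = 0.00047). RBL2 had a normalized count of 936, 919 and 1026 in PBS cells and of 659, 807 and 711 after tBHP (-0.41 ± 0.10, adjusted p = 0.0017). RBL2 fell by 0.57 in cNSF-HA cells (SE 0.10, adjusted p = 9.2e-05) and by 0.33 in fNSF-HA cells (SE 0.10, adjusted p = 0.011). Of the merged exons of RBL2, 610 of 7320 bases overlap the opposite-strand gene AKTIP and 721 overlap AC007342.6, and of RBL1, 211 of 5954 bases overlap AL136172.1.

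**Figure D2:**
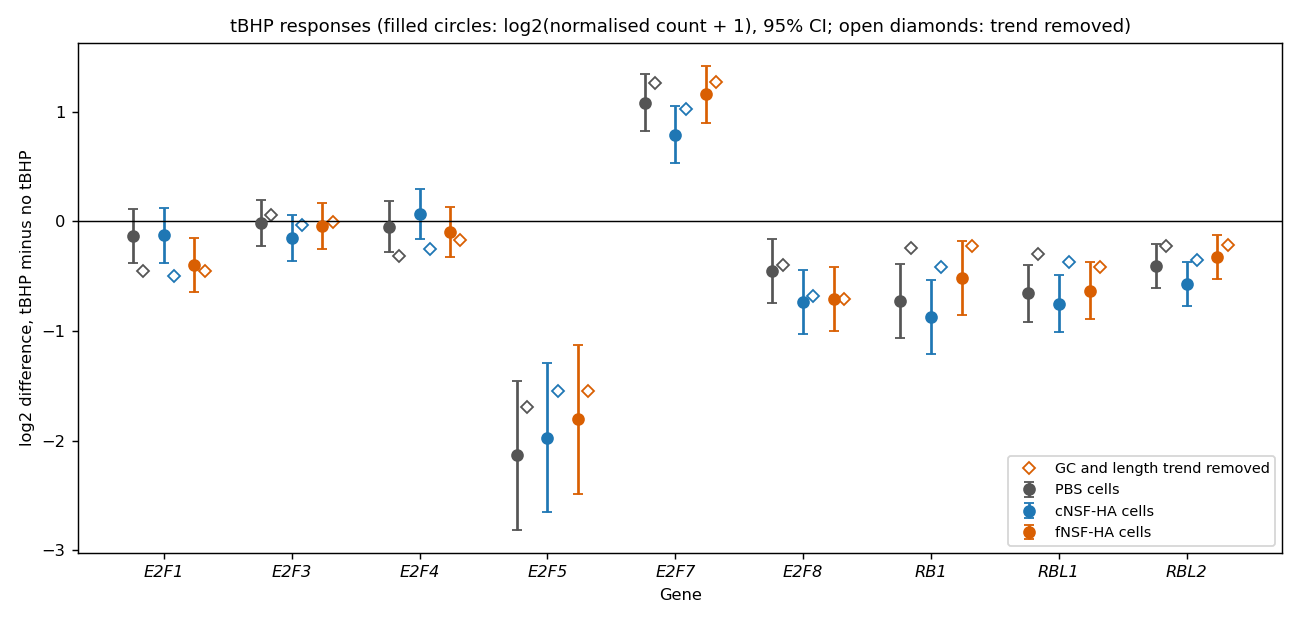
The log2 difference between cells with and without tBHP (y axis) for the 9 tested genes (x axis) in PBS, cNSF-HA and fNSF-HA cells, with filled circles and 95% confidence intervals for the values on log2(normalized count + 1) and open diamonds for the values after a trend with GC content and length was removed from each library. The E2F7 circles lie at 0.79 to 1.16 and the E2F5 circles at -2.13 to -1.80.

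In PBS and cNSF-HA cells the median response over all genes was higher in each class of higher transcript GC share, and the members span this range. In PBS cells the median response was -0.48 over the 2072 tested genes with a transcript GC share under 40% and 0.28 over the 1709 with at least 60%, while in fNSF-HA cells it was -0.27 and -0.02. RB1 (37.3%), E2F5 (38.3%) and RBL1 (40.01%) lie at the low end, and E2F4 (59.3%) and E2F1 (62.5%) at the high end. When the trend of each library with GC share and length was removed, the rises of E2F7 with PBS, cNSF-HA and fNSF-HA pre-incubation were 1.26, 1.03 and 1.27. The pocket proteins then fell less: in PBS cells RB1 was at -0.24 (adjusted p = 0.0070), RBL1 at -0.30 (adjusted p = 0.00023) and RBL2 at -0.22 (adjusted p = 0.0026). With cNSF-HA the same 3 genes were at -0.41, -0.37 and -0.35, and with fNSF-HA at -0.23, -0.41 and -0.22, all of them still called. E2F5 was then at -1.69 and E2F8 at -0.40 in PBS cells. E2F1 and E2F4, not called without this step in PBS cells, were then called at -0.46 and -0.32 (adjusted p = 1.4e-07 and 1.7e-06), and E2F4 in cNSF-HA cells turned from 0.06 to -0.25 (adjusted p = 4.1e-05). In fNSF-HA cells E2F4 was then at -0.17 (adjusted p = 0.0017). E2F1 in cNSF-HA cells was then called at -0.49 (adjusted p = 4.5e-08). E2F3 was called in no pre-incubation, at 0.06, -0.036 and -0.0053 with PBS, cNSF-HA and fNSF-HA (adjusted p = 0.48, 0.66 and 0.95). In this setting 8 members were called in each pre-incubation, 1 higher and 7 lower, beside 57.8%, 56.6% and 56.1% of the 12528 genes with a GC share and length. The part of GC share in the responses was not tested.

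**Figure D3:**
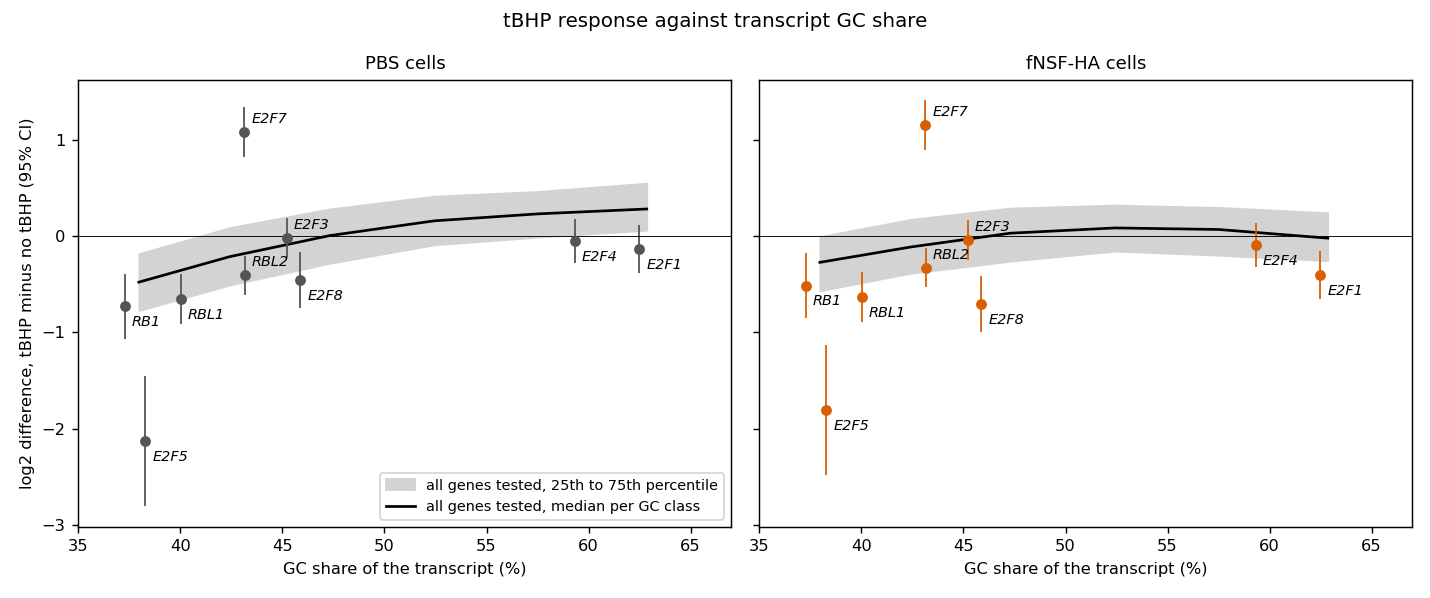
The log2 tBHP response (y axis, 95% confidence interval) of the 9 genes against the GC share of their transcripts (x axis, percent) in PBS and fNSF-HA cells, with a black line for the median and a grey band from the 25th to the 75th percentile of all tested genes in 6 classes of GC share. In PBS cells the median runs from -0.48 to 0.28, E2F7 lies above the band at 1.08, and E2F5 lies below it at -2.13.

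Whether the pre-incubation altered the tBHP response was tested as the difference between responses. None of the 9 members was called by limma, edgeR or DESeq2 for cNSF-HA against PBS, fNSF-HA against PBS or cNSF-HA against fNSF-HA, and 0% of all genes were called in each by limma. Over all genes edgeR called 0 in each, and DESeq2 called 0, 6 and 0. At an unadjusted p under 0.05 there were 0, 0 and 1 members, the last being E2F7, beside 555, 942 and 533 genes. The rise of E2F7 differed by -0.37 between cNSF-HA and fNSF-HA cells (95% confidence interval -0.73 to -0.0027, adjusted p = 0.71). RB1 and RBL2 fell in both, and their responses differed by -0.36 (-0.84 to 0.12) and by -0.24 (-0.53 to 0.04), more negative with cNSF-HA. For E2F5 the intervals of the 3 differences reached from -1.13 to 1.29, so these data bound the change of its response only loosely. These data do not show that the responses are alike.

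Between the pre-incubations themselves, the differences of the members without tBHP were small. For cNSF-HA against PBS they ranged from -0.08 (RB1) to 0.11 (E2F8), and none was called by limma, edgeR or DESeq2. Of all genes, 0% were called by limma, 0 by edgeR and 23 by DESeq2. RB1 was the 1 member with an unadjusted p under 0.05, beside 1648 of all genes. E2F1 was at 1415, 1408 and 1404 in cNSF-HA cells and at 1349, 1306 and 1365 in PBS cells, with no overlap, but the difference of 0.07 ± 0.04 did not pass (adjusted p = 0.47). E2F3 did not overlap either and went the other way, at 1146, 1158 and 1199 in cNSF-HA cells and at 1228, 1219.6 and 1220.2 in PBS cells (-0.07 ± 0.04, adjusted p = 0.54). These were the 2 members without overlap, beside 15.2% of all genes. For fNSF-HA against PBS the differences ranged from -0.05 (E2F5) to 0.08 (RBL2), and no member was called by any of the 3 tools or had an unadjusted p under 0.05, where 0.139% of all genes were called. The groups did not overlap for 0 members, beside 14% of all genes. Both comparisons share the PBS libraries.

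In the comparison of cNSF-HA with fNSF-HA without tBHP, which asks for an effect of polymer length, RB1 was the 1 member called, beside 6.88% of all genes. The 3 cNSF-HA libraries (1677, 1652 and 1769) lay below the 3 fNSF-HA libraries (1849, 1932 and 1827), a difference of -0.14 ± 0.04 (adjusted p = 0.027). This call was lost with edgeR (-0.11, adjusted p = 0.077), with DESeq2 (-0.12, adjusted p = 0.092) and after the GC and length trend was removed (-0.03, adjusted p = 0.84). Fits with no minimum (-0.14, adjusted p = 0.25), after quantile normalization (-0.11, adjusted p = 0.13) and of all 18 libraries (-0.14, adjusted p = 0.9999) lost the call as well. The call was also lost without cNSF-HA replicate 1 (-0.13, adjusted p = 0.075) or cNSF-HA replicate 2 (-0.12, adjusted p = 0.13). Without fNSF-HA replicate 1 (-0.15, adjusted p = 0.051) or fNSF-HA replicate 2 (-0.11, adjusted p = 0.18) it was lost too. The groups did not overlap for 3 members, beside 25% of all genes: RB1, E2F1 (0.07 ± 0.04, adjusted p = 0.30) and E2F3 (-0.10 ± 0.04, adjusted p = 0.12). RBL1 differed by -0.10 ± 0.05 (adjusted p = 0.18).

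After tBHP, none of the members was called between pre-incubations, and 0% of all genes were called in each of the 3 comparisons by limma, with 0 also by edgeR and DESeq2. For cNSF-HA against PBS and for fNSF-HA against PBS, 0 members had an unadjusted p under 0.05, beside 330 and 1104 of all genes. For cNSF-HA against fNSF-HA 4 members had one, beside 1672 of all genes: RB1 (-0.50 ± 0.21), E2F7 (-0.43 ± 0.16), RBL2 (-0.29 ± 0.13) and E2F1 (0.34 ± 0.16), each with an adjusted p of 0.38. E2F7 was at 4249, 4389 and 2979 in cNSF-HA cells and at 4895, 6217 and 4435 in fNSF-HA cells, with no overlap, and leaving out 1 library moved this difference between -0.53 and -0.25. RBL2 did not overlap either, at 727, 675 and 579 against 773, 902 and 753. These were the 2 members without overlap in this comparison, beside 13.4% of all genes. Against PBS, the groups did not overlap for 1 member with cNSF-HA (E2F7, -0.30 ± 0.16) and for 0 with fNSF-HA, beside 9.57% and 12% of all genes. RB1 was called without fNSF-HA + tBHP replicate 3 (-0.70, adjusted p = 0.044), a fit in which 7.38% of all genes were called, and was at -0.26 (adjusted p = 0.97) without replicate 2 of that group. With the GC and length trend removed, the 4 differences became -0.21, -0.25, -0.13 and -0.06, in the same order.

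**Figure D4:**
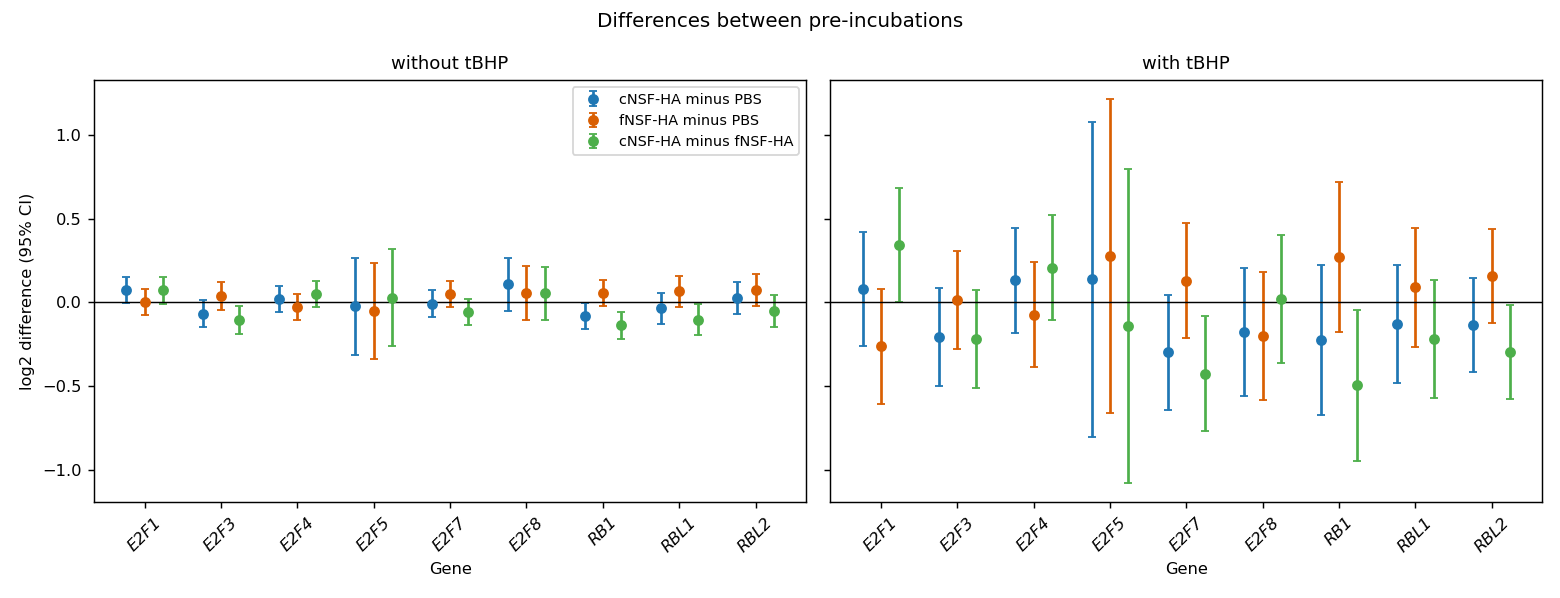
The log2 difference between pre-incubations (y axis, 95% confidence interval) for the 9 tested genes (x axis), without tBHP in one panel and with tBHP in the other, for cNSF-HA minus PBS, fNSF-HA minus PBS and cNSF-HA minus fNSF-HA. Without tBHP the 27 differences lie between -0.14 and 0.11, and with tBHP between -0.50 and 0.34 with wider intervals.

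The partners and regulators of the E2F factors were described with lists of genes, each beside the 51.1% of all genes called and the median of 0.00 in PBS cells after tBHP. Of 10 dimer partners and factors of the MuvB, MYBL2 and FOXM1 complexes, 3 rose, 3 fell and 4 did not pass (median 0.17). LIN9 and LIN52, subunits of the MuvB core that RBL1 and RBL2 bind, were at -1.23 ± 0.15 and -0.38 ± 0.10 (adjusted p = 2.1e-06 and 0.0039). LIN37, another core subunit, rose by 0.90 ± 0.21 (adjusted p = 0.0015), and MYBL2, an E2F target that joins MuvB in S phase, rose by 0.35 ± 0.10 (adjusted p = 0.0078). With the GC and length trend removed, MYBL2 was at 0.07 (adjusted p = 0.28) and LIN52 at -0.21 (adjusted p = 0.040). Of 9 kinases and cyclins that phosphorylate pocket proteins, 1 rose, 5 fell and 3 did not pass (median -0.48). CCNE2 and CCNA2, the cyclins that drive CDK2 in late G1 and S phase, fell by 1.55 ± 0.16 and by 1.10 ± 0.07 (adjusted p = 2.8e-07 and 9.0e-10). CCND2 rose by 0.60 ± 0.20 (adjusted p = 0.016), a call lost without PBS replicate 2, PBS + tBHP replicate 1 or PBS + tBHP replicate 2 (0.53 to 0.54, adjusted p = 0.057 to 0.061).

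CDKN1A, which inhibits the kinases that phosphorylate pocket proteins and is a p53 target, had the largest log2 change among the genes of these 6 lists in PBS cells. Its normalized count was 5231 ± 228 (SD, n = 3) in PBS cells and 43604 ± 4502 after tBHP, 8.31-fold higher (3.06 ± 0.10, adjusted p = 2.3e-13). Of the 6 tested CDK inhibitors among 7, 2 rose, 1 fell and 3 did not pass (median 0.10). CDKN2B, an inhibitor of CDK4 and CDK6, rose by 0.57 ± 0.12 (adjusted p = 0.00089), and CDKN2C of the same family was at -0.50 ± 0.08 (adjusted p = 4.5e-05). Of 10 corepressors that pocket proteins and E2F6 recruit, 2 rose, 2 fell and 6 did not pass (median -0.09). SIN3A and SIN3B, scaffolds of histone deacetylase complexes, rose by 0.61 ± 0.08 and 0.43 ± 0.10 (adjusted p = 4.5e-06 and 0.0012). The deacetylase HDAC2 was at -0.48 ± 0.06 and the DNA methyltransferase DNMT1 at -0.36 ± 0.06 (adjusted p = 2.8e-06 and 8.8e-05). With the GC and length trend removed, where 57.8% of all genes were called, 9 of these corepressors were called and HDAC2 was not (-0.03, adjusted p = 0.78), while SIN3B was at 0.14 (adjusted p = 0.021) and DNMT1 at -0.57 (adjusted p = 1.9e-10). Without PBS + tBHP replicate 1, 7 were called, beside 44.0% of all genes.

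Genes that E2F factors switch on for DNA replication fell for the most part. Of 26 G1/S target genes, 16 fell, 2 rose and 8 did not pass in PBS cells (median -0.30). UNG, which removes uracil from DNA, and SLBP, which binds histone mRNA, fell by 1.14 ± 0.08 and by 0.71 ± 0.07 (adjusted p = 3.0e-09 and 2.3e-07). PCNA, the clamp of the replication fork and also a p53 target, rose by 0.33 ± 0.07 (adjusted p = 0.00077). TYMS, which makes thymidylate, rose by 0.16 ± 0.06 (adjusted p = 0.030), a call lost in 5 of the 6 fits that left out 1 of the compared libraries (PBS replicates 2 and 3, 0.15 and 0.15, and each of the 3 PBS + tBHP libraries, 0.15 to 0.16), with no minimum (0.16), after quantile normalization (0.07) and with the GC and length trend removed (0.05). In cNSF-HA cells, where 26.8% of all genes fell, 14 of the 26 fell and 3 rose (median -0.22), and in fNSF-HA cells, where 22.7% fell, 17 fell and 1 rose (median -0.40). Among G2/M genes bound by MuvB complexes, 21 of 24 fell, 0 rose and 3 did not pass in PBS cells (median -0.75). CENPE, a kinetochore motor, fell by 1.85 ± 0.17, and ECT2, which acts in cytokinesis, fell by 1.20 ± 0.13 (adjusted p = 7.6e-08 and 7.8e-07). Beside the same shares, in cNSF-HA cells 21 of the 24 fell (median -0.74) and in fNSF-HA cells 22 fell (median -0.69), with 0 rising in either. With the GC and length trend removed, beside 57.8% of all genes, 20 G1/S genes were called in PBS cells (19 lower, median -0.34) and 22 G2/M genes (all lower, median -0.62), with ECT2 at -0.74. The difference between these lists and other genes was not tested.

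**Figure D5:**
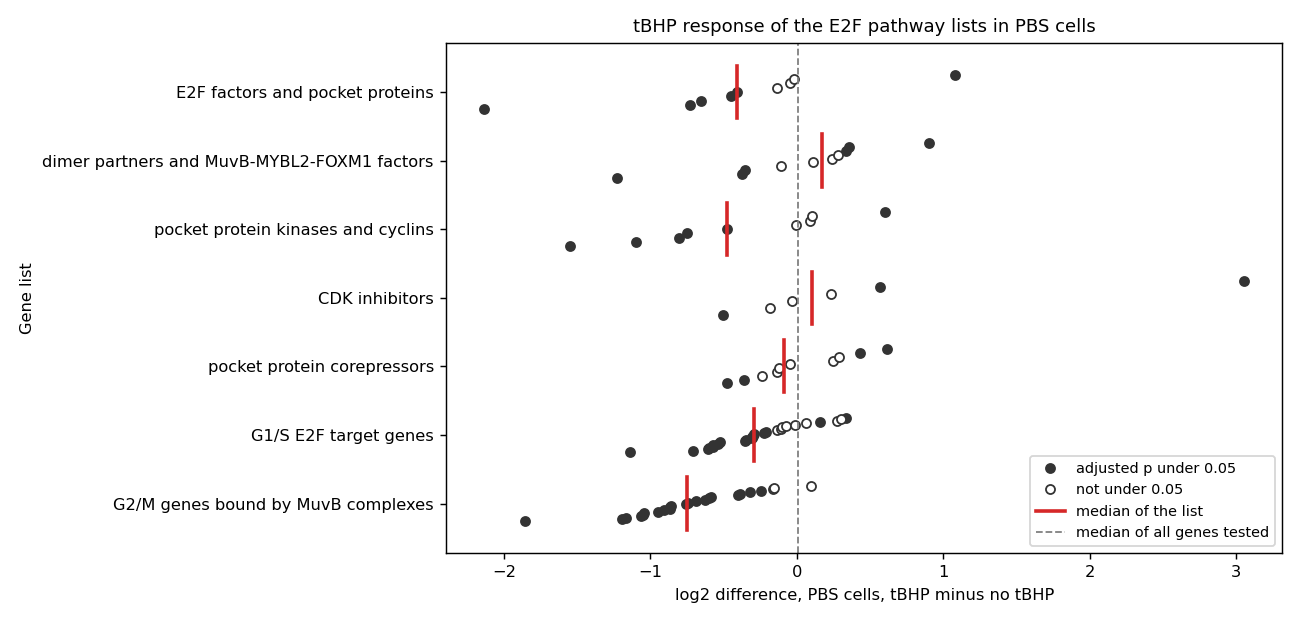
The log2 tBHP response in PBS cells (x axis) of each tested gene of the E2F family and pocket proteins and of 6 lists around them (y axis), with filled points for an adjusted p under 0.05, red bars for list medians and a dashed line for the median of all tested genes. CDKN1A stands apart at 3.06, and the list medians run from -0.75 for the G2/M genes to 0.17 for the dimer partners and MuvB factors.

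The E2F motif letters were present in 14 of the 23 G1/S genes with a RefSeq promoter and in 3 of the 20 G2/M genes with one, against 3.31% of all promoters. The letters TTTGAA or TTCGAA, the CHR element through which MuvB complexes bind G2/M genes, were present in 3 of 23 and 16 of 20, against 16.4% of all promoters, both strands being searched. The shares over all promoters count single entries, while a listed gene was counted if any of its entries held a match. By their letters, a match to one set cannot overlap a match to the other. Among the E2F family and pocket proteins, CHR letters were found in E2F3 at -65 to -60 and in RBL2 at 25 to 30. The RBL2 position is counted from a start 494 bases inside the gene. Of the G1/S genes with E2F letters, 11 of 14 fell after tBHP in PBS cells (median -0.30), and of those without, 4 of 9 fell (median -0.11). Among the G2/M genes the medians were -0.63 with E2F letters (3 genes) and -0.86 without (17 genes), and -0.75 with CHR letters (16 genes) and -1.04 without (4 genes). For CHR letters among the G1/S genes they were -0.58 with (3 genes) and -0.30 without (20 genes). None of these differences was tested. A match is a description and not a measured binding site.

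The genes whose log2 values most resembled those of the extreme members over the 18 libraries were named by Pearson's r among genes with a mean of at least 100. These libraries share the tBHP contrast, so the values describe the table and carry no test. For E2F7 they were SLC38A1 (r = 0.996), MAP4K4 (0.993), DAB2 (0.992), SLFN5 (0.990) and ABCA1 (0.988), compared over 10312 genes. For E2F5 they were TAF9B (r = 0.973), NIFK (0.970), HOXA5 (0.968), BRCC3 (0.967) and UBE2N (0.967), compared over 10313 genes. Each of the first 5 had a higher and each of the second 5 a lower value after tBHP in PBS cells, with differences of 0.58 to 1.48 and of -1.22 to -0.73.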

How the data were processed

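RNA from IMR90 cells was analysed in 6 groups of 3 libraries, grouped by the labels. According to the submitters' processing notes, tools included Trimmomatic 0.32, STAR 2.5.2b and featureCounts (Subread 1.5.0-p3), with build GRCh38.p7. The deposited signal is a read count per gene after division by a library's size factor, which the authors took from DESeq2. In every library 100% of values were whole reads (within 0.01), and libraries held 20261103 to 26287660 recovered reads. A further 3 columns with p-values, q-values and ranks from the authors' comparison were not used.

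Genes with a mean of at least 10 were tested with limma 3.58.1 (R 4.3.3, mean-variance trend, two-sided) on log2(signal + 1). Responses to tBHP and their differences were fitted on 18 libraries, and differences between pre-incubations on the 9 libraries of 1 tBHP state. P-values measure the spread between these libraries. Alternatives were edgeR 4.0.16 and DESeq2 1.42.0 on the recovered reads, pseudocounts of 0.1 and 5, no minimum or a minimum of 50, other scalings, group weights, other sets of libraries, a replicate block, splines of GC share and length (5 degrees of freedom each, 91.5% of genes, GENCODE 29), and each library left out. No replicate pair was identical, and chi-square per degree of freedom between replicates was 1.45 to 64.8.

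The genes and lists were chosen with earlier results of these data known. Named list genes were the 2 largest rises and 2 largest falls past the test in PBS cells, and the genes most like the members with the largest rise and fall in PBS cells were the 5 with the highest r. The motif letters were chosen after the data were seen.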

Additional observations from a re-analysis of the deposited data

How the results depend on the processing

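The counts of called members and list genes were recomputed 366 times under other settings, and 349 stayed within 1.5 times the reported count. For cNSF-HA minus fNSF-HA without tBHP, 0 members were called with no filter, quantile normalization, edgeR, DESeq2, the GC and length trend removed (with or without the replicate block) and a fit of all 18 libraries, and leaving out 1 library gave 0 to 1. Of all genes, 0.226%, 2.19%, 4.76%, 3.08%, 0.263% (1.10% with the block) and 0% were called in the named settings, in the same order. With tBHP the same comparison gave 0 to 1 when 1 library was left out, the 1 coming without fNSF-HA + tBHP replicate 3, where 7.38% of all genes were called. Of the corepressors, 7 were called after quantile normalization, 9 with the GC and length trend removed (with or without the replicate block), 8 with group weights and 4 to 7 when 1 library was left out. Of all genes, 51.5%, 57.8% (58.6% with the block) and 56.2% were called in the first 3 of these settings. The cause was not tested, apart from settings that use fewer libraries. The log2 differences of single genes were recomputed 950 times: 11 changed sign, 2 of these also gaining a call, 34 lost their call and another 10 gained one. The changes of sign were in E2F3 and E2F4, where neither was called in the reported fit: E2F3 in PBS cells was at 0.052 with edgeR, at 0.056 with the GC and length trend removed (with or without the block) and at -0.067 to 0.074 when 1 library was left out. E2F3 in fNSF-HA cells was at 0.029 with edgeR and at -0.17 to 0.027 when 1 library was left out. E2F4 was at 0.019 in PBS cells with edgeR, at -0.25 in cNSF-HA cells with the GC and length trend removed (with or without the block) and at -0.25 to 0.078 in fNSF-HA cells when 1 library was left out. Replicate numbers were not shown to pair the samples: in 0 of 15 pairs of groups did all 3 same-numbered correlations exceed 0.1. With the replicate block, 6, 6 and 7 members were called with PBS, cNSF-HA and fNSF-HA, beside 52.8%, 52.4% and 43.4% of all genes. None of the 18 counts or 50 single-gene calls changed with the block. Depth limits E2F2 and E2F5, and the spread after tBHP limits the comparisons that use tBHP libraries.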
